A study of Mus musculus with 4 samples.

Results

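The inner cell mass (ICM) and the trophectoderm (TE) of mouse blastocysts at the time labelled E4 were compared across all protein-coding genes. The members were the 10 libraries of this tissue pair, 5 of ICM and 5 of TE, of 20 libraries in the series, and each ICM library was paired with the TE library of the same litter through the deposited list of barcodes. The embryos were wild type (WT), from crosses of a B6D2F1 male with an ICR female, and both tissues came from the same 5 litters. ICM here is the tissue labelled as the embryonic side and TE the tissue labelled as the extra-embryonic side, and according to the design text they were separated with the HTlasr system. The labels do not say whether the trophectoderm that covers the ICM was part of the embryonic side. The protocol speaks of diapause embryos, whereas the barcode list marks E4 as the time before diapause, and these sources conflict. RNA was measured by BRB-seq, which counts the 3′ ends of polyadenylated transcripts of barcoded samples, and the ICM replicates were pooled before PCR, as were the TE replicates, so that pool and tissue cannot be told apart. The sources do not give the number of embryos in a library, and the p-values reflect only how these libraries varied.

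The blastocyst forms its first 2 lineages by position. Outer cells become trophectoderm, an epithelium that pumps fluid into the cavity and later builds the placenta, under transcription factors such as Cdx2, Gata3 and Tfap2c. Inner cells form the ICM, which then divides into epiblast, the source of the embryo proper, and primitive endoderm, the source of the yolk sac, with FGF4 from epiblast precursors acting on primitive endoderm precursors.

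The ICM libraries held 159215 to 438906 counts and the TE libraries 144276 to 506584, with 9944 to 12813 and 9458 to 11688 genes counted. Gene coordinates are of GRCm38. Levels are given as CPM, the usual relative scale of counts, here over tested genes with TMM factors, always in the order of replicates 1 to 5, and replicates with the same number share a litter. A count of 0 allows up to 3 counts, or 6.91 to 21.1 CPM in an ICM library and 6.56 to 24.1 CPM in a TE library, for counting error only. Mitochondrial transcripts took 8.35 to 15.1% of counts in the ICM and 8.03 to 12.8% in the TE, so the ranges overlapped. In these bulk libraries, fewer cells of a type and less RNA per cell cannot be told apart. Marker lists of blood, uterine tissue and granulosa cells each summed to at most 41.5 CPM in an ICM library. In TE replicate 1 the blood and uterine lists each summed to 95.4 CPM, against TE medians of 4.55 and 7.99 CPM. The granulosa list reached at most 18.2 CPM in a TE library, and 0 genes of these lists passed the filter on low counts.

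In a paired edgeR quasi-likelihood test with litter as a block, 908 of 4617 protein-coding genes tested (19.7%) were higher in the ICM and 874 (18.9%) were lower at an adjusted p under 0.05, out of 13581 protein-coding genes with a count at E4. Over all 4780 genes tested, 926 (19.4%) were higher and 935 (19.6%) lower. Differences are log2 ICM minus TE ± standard error (SE), and called means past this threshold. A gene could pass the filter on low counts through the libraries of 1 tissue alone. Counts and medians of list members thus lean toward genes that are high in at least 1 tissue. Counts of list members are to be read beside the shares over all genes tested, 19.4% higher and 19.6% lower. The ICM library lay above the TE library in 5 of 5 litters for 795 of the 908 genes and below it in 5 of 5 litters for 764 of the 874. The ranges of the 2 tissues did not overlap for 546 and 522 of these genes. These counts describe the calls on the same libraries and are no separate check of them. Differences over 2-fold were found in 479 genes higher and 539 lower, and over 4-fold in 138 and 139. Beyond 16-fold the directions were uneven, with 41 protein-coding genes higher in the ICM and 8 lower. On the first principal component (55.5% of the variance) the ICM libraries lay on one side and the TE libraries on the other, and the second (8.78%) placed ICM replicate 1 and TE replicate 3 at one end.

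**Figure D1:**
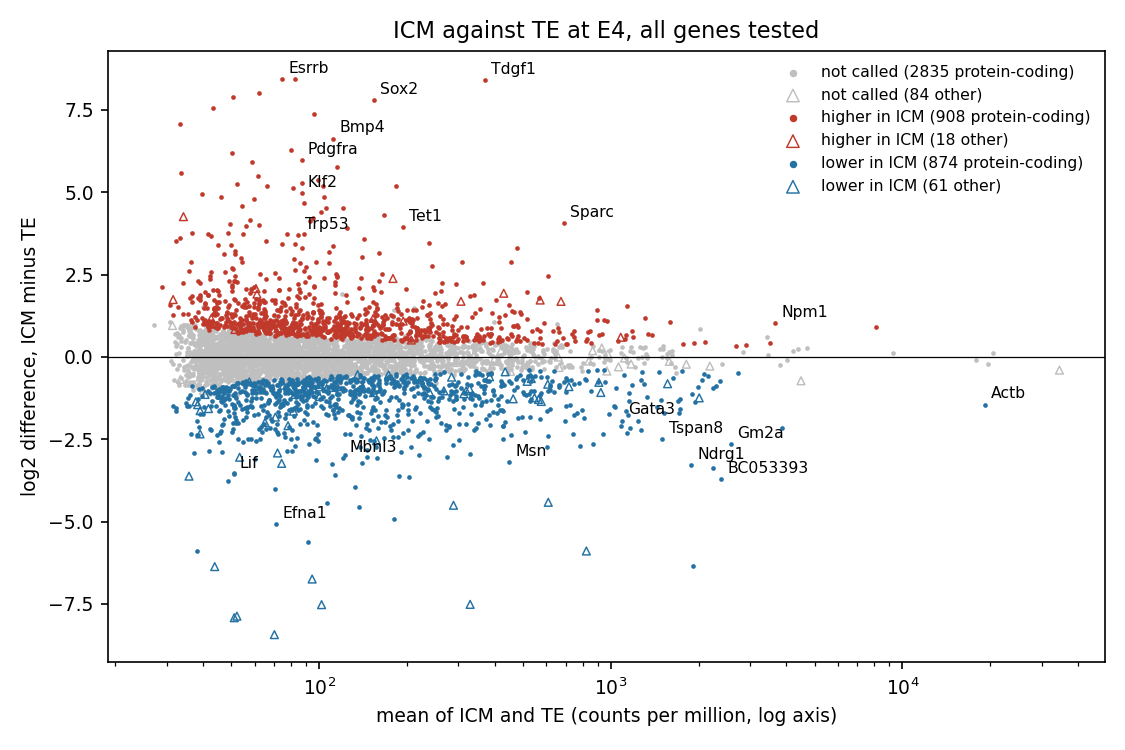
Mean level of each tested gene over the 10 libraries (horizontal axis, log scale) against its log2 difference ICM minus TE (vertical axis), with protein-coding genes as dots and other biotypes as open triangles, coloured by call. The 908 protein-coding genes higher in the ICM reach further from 0 than the 874 lower, and 41 against 8 lie beyond 16-fold.

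The 8 protein-coding genes more than 16-fold lower in the ICM, named here after their values were seen, were outside the list of trophectoderm markers. Trpv5, a calcium channel of transporting epithelia (chr6:41652173-41680769, minus strand), was counted at 0, 17.4, 5.11, 4.61 and 32.8 CPM in the ICM libraries and 337, 318, 397, 431 and 258 CPM in the TE libraries. The lowest TE library was well above the highest ICM library, with a difference of -4.93 ± 0.43 and an adjusted p of 2.1e-06. Il6, a cytokine that signals through the receptor subunit Il6st (chr5:30013114-30019981, plus strand), had 1 count over the ICM libraries and 89 counts over the TE libraries. Its TE levels of 159, 45.5, 77.2, 39.4 and 56.3 CPM exceeded the ICM levels of 0, 0, 0, 0 and 4.68 CPM in every litter, with an adjusted p of 2.51e-06. Slc22a5, the carnitine transporter of the plasma membrane, stood at 0, 17.4, 0, 9.21 and 18.7 CPM in the ICM libraries and 172, 100.01, 288, 295 and 161 CPM in the TE libraries, a difference of -4.44 ± 0.52. Syt15, of the synaptotagmin family, differed by -5.63 ± 0.48, and the clathrin adaptor gene Snap91 by -4.55 ± 0.40. The endocytic gene Fchsd2 differed by -4.001 ± 0.43, and Efna1, a membrane-bound ligand of Eph receptors, by -5.08 ± 0.74. BC051665 (chr13:60781887-60786364, minus strand) had the largest SE among the 8, with 0, 52.2, 2.55, 18.4 and 178 CPM in the ICM libraries and 2824, 1341, 8470, 3493 and 2688 CPM in the TE libraries. Its difference of -6.35 ± 1.19 had an adjusted p of 0.0162 and was not called in 4 of 16 alternatives. Ctsll3, a cathepsin L-like gene, lies beside it on the same strand (chr13:60798250-60802849, minus strand) and was the only gene counted in the TE but not in the ICM under the rule for such genes. It had 0 counts in all 5 ICM libraries and 19.08, 9.09, 935, 56.9 and 56.3 CPM in the TE, at least 148-fold higher against 3 counts over the ICM group, and TE replicate 3 held most of it. Reads of near-identical cathepsin genes may have been split between copies.

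Epiblast genes were among those with the largest ICM excess. Of 40 listed, 30 passed the filter, and of these 23 were higher, 3 lower and 4 not called, with a median log2 difference of 3.42 against 0.03 over all genes tested. These genes are established markers of the ICM. Members could pass the filter through the ICM libraries alone, so the count is a description and no check of the labels. Sox2, a pluripotency factor (chr3:34650405-34652461, plus strand), was counted at 373, 284, 286, 149.7 and 435 CPM in the ICM libraries and 6.36, 0, 0, 0 and 0 CPM in the TE libraries. No TE library came near the lowest ICM library, and the ratio of pooled counts was 368 (95% interval 65.7 to 14573). Intervals of such ratios here cover counting error only and not the spread between litters. Nanog, another pluripotency factor, stood at 289, 159.5, 166, 136 and 211 CPM in the ICM libraries and 19.08, 18.2, 0, 2.19 and 16.1 CPM in the TE libraries, without overlap. Its difference was 4.42 ± 0.41 with an adjusted p of 3.26e-07. Esrrb, an orphan nuclear receptor of the naive network (chr12:86361117-86521628, plus strand), was at 204, 145, 153, 145 and 98.3 CPM in the ICM and had 0 counts in the TE, at least 65-fold higher against 3 counts over the TE group. Klf2 differed by 4.98 ± 0.40, Klf4 by 3.38 ± 0.33 and Tbx3 by 2.51 ± 0.27, all 3 being factors of the same network. Utf1, a chromatin-bound protein of pluripotent cells, was at 472, 264, 342, 316 and 398 CPM in the ICM libraries and 0, 4.55, 10.7, 10.9 and 16.1 CPM in the TE libraries, a difference of 5.20 ± 0.32.

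Genes with no role as lineage factors were among the steepest too. Tdh, the mitochondrial threonine dehydrogenase, was at 254, 98.6, 217, 217 and 169 CPM in the ICM libraries and 6.36, 0, 0, 0 and 0 CPM in the TE libraries, and its ratio of pooled counts was 249.2 (95% interval 44.4 to 9876). Upp1, a uridine phosphorylase, differed by 4.52 ± 0.35, and Spp1, the secreted matrix protein osteopontin, by 3.46 ± 0.30. Lin28a, an RNA-binding protein that blocks let-7 processing, differed by 2.87 ± 0.44. The 3 epiblast-list genes that were lower in the ICM were Dppa5a, Trap1a and Klf5. Dppa5a, an RNA-binding protein of pluripotent cells with near-identical copies in the genome, was at 1156, 742, 912, 993 and 810.1 CPM in the ICM libraries and 2582, 2273, 3809, 2675 and 1038 CPM in the TE libraries. It was below the TE in 5 of 5 litters, although the groups overlapped through TE replicate 5, with a difference of -1.35 ± 0.20 and an adjusted p of 0.00011. The X-linked gene Trap1a differed by -1.23 ± 0.19. The members Sall4 (0.38 ± 0.17), Dppa3 (1.01 ± 0.42), Fbxo15 (-0.14 ± 0.17) and Dnmt3l (0.01 ± 0.29) were not called. Pou5f1, which encodes OCT4, gave 8 counts over the ICM and 0 over the TE libraries. These counts are too few to test, and an antisense gene, Gm19553, is annotated over its 3′ exons.

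In all, 22 genes had at least 100 pooled counts in the ICM and at most 3 in the TE, against 1 gene in the reverse direction. Jam2, a junctional adhesion molecule, was at 226, 128, 181, 108 and 183 CPM in the ICM and 0 counts in the TE, at least 67.9-fold higher against 3 counts. Tdgf1, the Nodal co-receptor also called Cripto, was at 1219, 687, 577, 486 and 712 CPM in the ICM libraries and 6.36, 4.55, 0, 0 and 0 CPM in the TE libraries, with a ratio of 437 (95% interval 121 to 3611). Ifitm2, an interferon-induced membrane protein, had a ratio of 97.9 (95% interval 26.8 to 814). Slc1a3, a glutamate transporter, had a ratio of 57.7 (95% interval 19.5 to 282). Jam2 and Tdgf1 were counted in all 5 ICM libraries, but others of the 22 were uneven over litters. Lefty2, an inhibitor of Nodal, was at 176, 17.4, 158, 258 and 37.5 CPM in the ICM and 0 counts in the TE. Flrt3, a cell surface protein that binds FGF receptors, was at 7.05, 116, 342, 246 and 46.8 CPM in the ICM. Trh, the thyrotropin-releasing hormone precursor, was at 7.05, 2.9, 97.1, 157 and 18.7 CPM in the ICM. These last 3 failed the filter on low counts through their low litters, and Flrt3 and Trh were highest in replicates 3 and 4.

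Primitive endoderm genes were also higher in the ICM. Of 33 listed, 17 passed the filter, and 12 were higher, 2 lower and 3 not called, with a median of 2.22. Pdgfra, the receptor that marks these cells (chr5:75152292-75198215, plus strand), was at 155, 209, 140.5, 179.7 and 173 CPM in the ICM libraries and 0, 0, 5.33, 0 and 8.05 CPM in the TE libraries. The ratio of pooled counts was 76.9 (95% interval 26 to 375), and no library overlapped. Sox17, an endoderm factor, was at 84.6, 113, 140.5, 175 and 267 CPM in the ICM libraries and 19.08, 0, 0, 0 and 16.1 CPM in the TE libraries, a difference of 5.12 ± 0.58. Gata4 differed by 4.58 ± 0.60, and its TE count came almost wholly from TE replicate 5. Gata6, which acts upstream of both, differed by less, 1.601 ± 0.27, with 388, 481, 317, 341 and 445 CPM in the ICM libraries and 178, 164, 29.3, 149 and 201 CPM in the TE libraries. All 5 ICM libraries lay above all 5 TE libraries, and TE replicate 3 was the lowest. Matrix genes of this lineage varied, with 4.06 ± 0.35 for Sparc, 4.51 ± 0.56 for the type IV collagen chain Col4a1, and 4.13 ± 0.55 for the collagen chaperone Serpinh1. The laminin chains differed by less, 2.22 ± 0.62 for Lamc1 and 1.88 ± 0.53 for Lama1, and Lamb1 was not called (1.48 ± 0.61, adjusted p 0.109). Apoe, a lipid carrier, differed by 3.32 ± 0.25, and Aqp8, a water channel, by 3.16 ± 0.29. The 2 members that were lower were the endocytic adaptor Dab2 (-1.46 ± 0.18) and the claudin Cldn6 (-1.15 ± 0.20), the latter losing its call when all 20 libraries were fitted together. Lrp2, the scavenger receptor megalin that Dab2 serves, was not called, at 63.4, 215, 58.8, 235 and 60.9 CPM in the ICM libraries and 559.7, 527, 18.6, 184 and 370.2 CPM in the TE libraries. Its levels overlapped widely and were higher in the TE in 3 litters and in the ICM in the other 2. Sox7, a later endoderm factor, had 74 ICM counts and 0 TE counts, at 7.05, 2.9, 74.1, 99.1 and 0 CPM in the ICM libraries, so replicates 3 and 4 held nearly all of it.

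Of 33 trophectoderm genes listed, 23 passed the filter, and 19 were lower in the ICM, 0 higher and 4 not called, with a median of -1.70. Gata3, a factor that drives this lineage (chr2:9857078-9890034, minus strand), was at 543, 418, 439, 401 and 454 CPM in the ICM libraries and 1590, 1809, 2317, 1717 and 1231 CPM in the TE libraries. The groups stood apart, and the difference was -1.94 ± 0.16 with an adjusted p of 9.63e-08. Gata2 was at 35.2, 43.5, 30.7, 76 and 103 CPM in the ICM libraries and 254, 232, 279.7, 346 and 386 CPM in the TE libraries, a difference of -2.43 ± 0.23. Tfap2a differed by -2.21 ± 0.25, Tfap2c by -1.77 ± 0.23, and Grhl1, a grainyhead factor of epithelia, by -2.31 ± 0.27. Eomes, a T-box factor of trophoblast, differed by -1.76 ± 0.16, and Tspan8, a tetraspanin, by -2.50 ± 0.14. Ndrg1, a stress-responsive gene of trophoblast, was at 254, 238, 268, 320.2 and 609 CPM in the ICM libraries and 2156, 1591, 5865, 4676 and 2865 CPM in the TE libraries, a difference of -3.29 ± 0.34. An antisense gene is annotated over the 3′ exons of Eomes, Tspan8 and Ndrg1, and whether counting used strand is not given in the sources used here, so these 3 values are uncertain. Cdx2, the best known factor of the lineage, failed the filter, with 35.2, 37.7, 17.9, 23 and 18.7 CPM in the ICM libraries and 31.8, 63.6, 66.6, 28.4 and 48.3 CPM in the TE libraries, and its groups overlapped. Elf5, a trophoblast stem cell factor, was not called (-0.07 ± 0.21), nor were Tead4 (-0.20 ± 0.25) and Fgfr2 (-0.47 ± 0.21). Plac1, a gene of the placenta, had 6 counts over the ICM and 204 over the TE libraries, and Krt7, a simple keratin, had 42 and 267, yet both failed the filter.

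Each lineage list was also counted in the other tissue. The trophectoderm list summed to 5055 to 7144 CPM in the ICM libraries and to 17797 to 27785 CPM in the TE libraries. The epiblast list summed to 8279 to 12240 CPM in the ICM and 4925 to 7445 CPM in the TE, where Dppa5a, Klf5 and Dppa3 were well counted. The primitive endoderm list summed to 4059 to 9334 CPM in the ICM and 2208 to 3352 CPM in the TE. Single members ranged widely within each list, as Esrrb was at 0 counts and Sox2 near 0 in the TE, and Plac1 had 6 counts in the ICM. Of the 23 trophectoderm genes tested, 0 were at 0 in the ICM as a group. How much of a tissue's values for the genes of the other lineage came from cells of that lineage was not tested. Of a list of genes of the polar trophectoderm and trophoblast stem cells, 13 of 18 passed the filter, with 7 higher and 2 lower in the ICM, but Sox2, Utf1, Bmp4, Esrrb and Zfp42 of these 7 are also on the epiblast list. The list of mural trophectoderm had 3 of 20 tested, and the 3, Basp1, Gata2 and Slc2a3, were all lower in the ICM, with -2.71 ± 0.22 for Basp1, a membrane protein tied to the cell cortex.

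**Figure D2:**
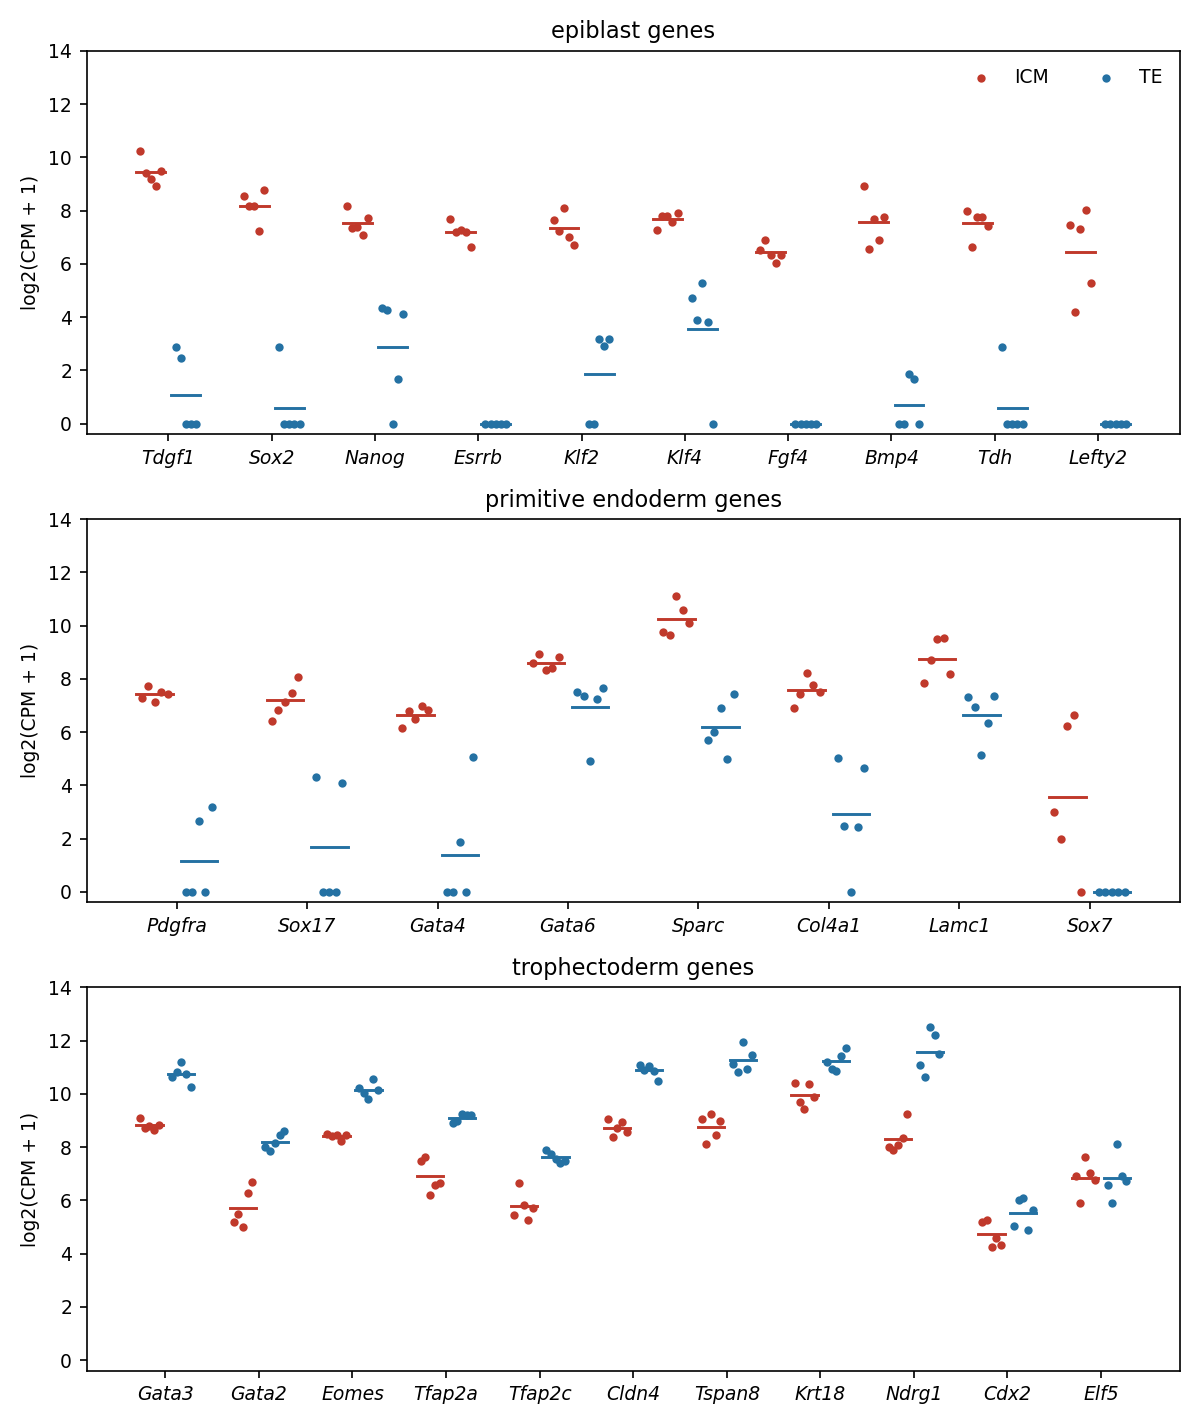
Level of lineage genes in each library as log2(CPM + 1), with ICM libraries in red, TE libraries in blue and short bars for the mean of 5 libraries. Sox2, Esrrb and Pdgfra lie at or near 0 in most TE libraries, Gata6 and Lamc1 are counted in all 5 TE libraries, Gata3 is separated between the tissues, and Cdx2 and Elf5 overlap.

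Genes of signalling pathways were found on both sides. In the FGF and ERK pathway, in which secreted FGFs act through receptor kinases to ERK, 18 of 35 listed genes were tested, with 7 higher and 2 lower. Fgf4, the ligand of the early embryo (chr7:144847367-144865243, plus strand), was at 91.6, 119, 79.2, 64.5 and 79.6 CPM in the ICM and had 0 counts over the TE libraries, at least 37.9-fold higher against 3 counts. Fgf10 was a second ligand of the ICM, at 70.5, 139, 97.1, 129 and 145 CPM in the ICM libraries and 0, 0, 5.33, 0 and 0 CPM in the TE libraries, with a ratio of pooled counts of 80.0 (95% interval 21.8 to 666). Of the receptors, Fgfr1 was at 127, 136, 158, 164 and 112 CPM in the ICM libraries and 89, 77.3, 47.9, 41.6 and 64.4 CPM in the TE libraries, a difference of 1.26 ± 0.26. Fgfr2, at 148, 212, 255, 246 and 234 CPM in the ICM libraries and 419.8, 277, 301, 339 and 217 CPM in the TE libraries, was not called, with -0.47 ± 0.21 and an adjusted p of 0.081, and its groups overlapped. Of the targets, Etv5, an ETS factor induced by ERK, was at 211, 104, 118, 82.9 and 103 CPM in the ICM and 0 counts over the TE libraries, at least 49.5-fold higher against 3 counts, and the feedback inhibitor Spry2 differed by 2.39 ± 0.25, while the feedback phosphatase Dusp6 was not called (0.37 ± 0.37), with TE replicate 3 far above the other libraries. Frs2, the adaptor that couples FGF receptors to the pathway, was on the other side, at 21.1, 87, 56.2, 48.4 and 70.2 CPM in the ICM libraries and 139.9, 223, 162, 229.6 and 258 CPM in the TE libraries. Its difference was -1.82 ± 0.23 with an adjusted p of 8.09e-06.

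Of the BMP genes listed, 5 of 24 were tested. Bmp4, a secreted ligand (chr14:46383520-46390669, minus strand), was at 479, 92.8, 207, 117 and 215 CPM in the ICM libraries and 0, 0, 2.66, 2.19 and 0 CPM in the TE libraries. It was highest in ICM replicate 1 and at or near 0 in the TE, with a ratio of 122 (95% interval 33.3 to 1009), although Gm15217 lies antisense over its 3′ exons. The ID genes, usual targets of BMP, took opposite sides. Id3 was at 423, 139, 128, 85.2 and 215 CPM in the ICM libraries and 38.2, 0, 0, 0 and 8.05 CPM in the TE libraries, a difference of 4.87 ± 0.46 with an adjusted p of 6.22e-07. Id2 was at 1142, 481, 879, 991 and 473 CPM in the ICM libraries and 3008, 1964, 4408, 2443 and 1272 CPM in the TE libraries, a difference of -1.70 ± 0.16 with an adjusted p of 4.56e-07. Neither pair of groups overlapped. Msx1, a homeobox target of BMP, differed by 2.89 ± 0.46, but its 2 tissues were level in replicate 5. Of 31 genes of the Nodal and TGF-beta pathway, 9 were tested and 3 were higher (33.3%, against 19.4% of all genes tested). Among them were Tdgf1 and the ligand Gdf3. Gdf3 was at 148, 113, 76.6, 55.3 and 103 CPM in the ICM libraries and 0, 4.55, 0, 0 and 0 CPM in the TE libraries, with a ratio of 119 (95% interval 21 to 4731). Nodal itself gave 14 counts, all from the ICM.

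In the LIF and JAK-STAT pathway, 9 of 20 listed genes were tested, with 2 higher and 3 lower in the ICM, and the ligand and the receptor subunit took opposite sides. Lif, a cytokine that sustains naive pluripotency and that the uterus also makes (chr11:4257557-4272514, plus strand), was at 0, 11.6, 2.55, 0 and 32.8 CPM in the ICM libraries and 76.3, 164, 79.9, 85.3 and 56.3 CPM in the TE libraries. Every TE library exceeded every ICM library, and the difference was -3.56 ± 0.58 with an adjusted p of 0.000403. Il6st, the receptor subunit shared by LIF and IL6, was at 56.4, 133, 112, 92.1 and 60.9 CPM in the ICM libraries and 0, 0, 7.99, 8.75 and 16.1 CPM in the TE libraries. It went the other way, with 3.77 ± 0.45 and an adjusted p of 4.98e-06. The ICM also had the feedback inhibitor Socs2, at 176, 157, 258, 223 and 149.8 CPM in the ICM libraries and 12.7, 4.55, 7.99, 0 and 0 CPM in the TE libraries and a difference of 5.39 ± 0.42. Stat3, the transcription factor of this pathway, was lower in the ICM by a smaller amount, -0.83 ± 0.22. That call was lost without replicate 4 and with the litters that had a zona pellucida alone, and the antisense partner Stat5a makes the count uncertain. Socs3 (0.55 ± 0.33) was not called.

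In the Wnt pathway, 14 of 40 listed genes were tested, with 4 higher and 3 lower, or 2 and 4 without replicate 4. The shares with all litters were 28.6% and 21.4%, against 19.4% and 19.6% of all genes tested. Both secreted inhibitors tested were higher in the ICM. Sfrp1, which binds Wnt ligands, was at 63.4, 63.8, 115, 115 and 149.8 CPM in the ICM and 0 counts in the TE, at least 46-fold higher against 3 counts. Dkk1, which blocks the co-receptor, was at 56.4, 40.6, 174, 173 and 89 CPM in the ICM libraries and 12.7, 4.55, 5.33, 0 and 24.1 CPM in the TE libraries, a difference of 4.15 ± 0.57. Among the lower genes, Wls, the carrier that Wnt ligands need for secretion, was at 21.1, 17.4, 30.7, 27.6 and 23.4 CPM in the ICM libraries and 114, 109, 79.9, 129 and 153 CPM in the TE libraries, a difference of -2.18 ± 0.29. Wnt7b differed by -1.20 ± 0.24, and Gsk3b, a kinase of the destruction complex, by -1.54 ± 0.20, at 119.8, 145, 102, 124 and 164 CPM in the ICM libraries and 324, 309, 450.2, 381 and 418 CPM in the TE libraries. Tcf7l1, a repressor at Wnt target genes, was higher in the ICM (2.06 ± 0.31).

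Of 27 listed genes of Eph, ephrin, semaphorin and plexin signalling, 7 were tested, with 1 receptor higher and 3 ligands lower in the ICM. Epha4, a receptor kinase, was at 63.4, 139, 120.1, 119.8 and 131 CPM in the ICM libraries and 0, 0, 5.33, 2.19 and 16.1 CPM in the TE libraries, a difference of 4.80 ± 0.46. The ligand Efnb1 was at 21.1, 26.1, 23, 18.4 and 74.9 CPM in the ICM libraries and 293, 273, 389, 553 and 362 CPM in the TE libraries, and Efnb2 at 49.3, 95.7, 69, 69.1 and 65.6 CPM in the ICM libraries and 324, 295, 330.3, 357 and 354 CPM in the TE libraries. Their differences were -3.65 ± 0.31 and -2.22 ± 0.21, and in each of these 3 genes the groups did not overlap. Efna1 was at 0, 0, 0, 0 and 28.1 CPM in the ICM libraries and 76.3, 77.3, 234, 190.3 and 105 CPM in the TE libraries. Only ICM replicate 5 held counts of it, and that library was also the highest of the ICM in Efnb1 and Ndrg1. In the Hippo pathway, which restrains YAP and TEAD in inner cells, 18 genes were tested, with 2 higher and 5 lower. Tead3 was at 0, 20.3, 43.4, 34.6 and 79.6 CPM in the ICM libraries and 108, 218, 408, 328 and 338 CPM in the TE libraries, a difference of -3.06 ± 0.28, and the TEAD cofactor Vgll3 differed by -1.99 ± 0.30. Tead2 differed by -1.39 ± 0.26, with Cd37 annotated antisense to it. Tead4, at 63.4, 95.7, 58.8, 59.9 and 60.9 CPM in the ICM libraries and 70.0, 86.4, 61.3, 74.4 and 105 CPM in the TE libraries, was not called (-0.20 ± 0.25, adjusted p 0.554), and Yap1 was not called (-0.03 ± 0.20, a 95% interval within 0.5 of 0). The kinase Map4k4 (2.12 ± 0.32) and the YAP-binding protein Amot (1.41 ± 0.35) were higher in the ICM.

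**Figure D3:**
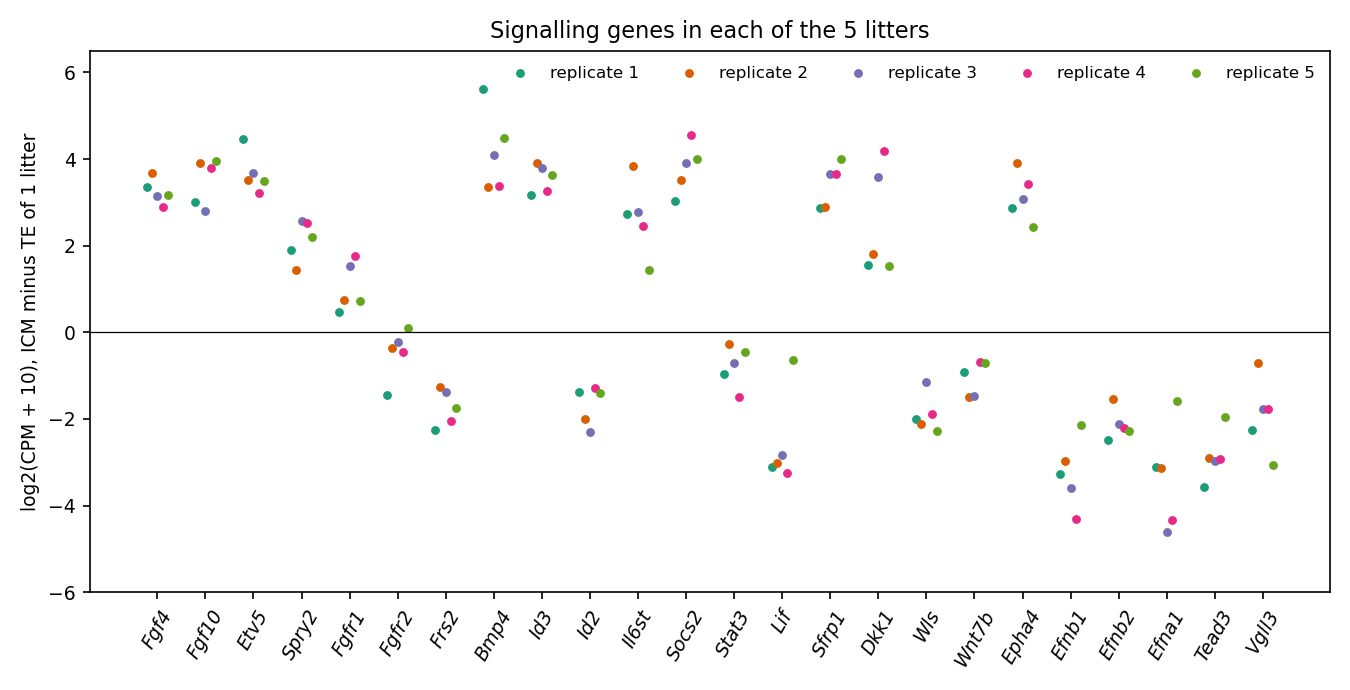
Difference ICM minus TE in each of the 5 litters for signalling genes, on the log2(CPM + 10) scale, 1 point per litter. Fgf4, Etv5, Sfrp1 and Il6st lie above 0 in 5 of 5 litters and Lif, Frs2, Wls and Efnb1 below 0 in 5 of 5, while Fgfr2 has points on both sides.

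Families of transcription factors divided between the tissues. Among the KLF and SP factors, 9 were tested, with 3 higher and 2 lower. Klf2 was at 197, 148, 271, 129 and 103 CPM in the ICM libraries and 0, 0, 7.99, 6.56 and 8.05 CPM in the TE libraries, and Klf4 at 155, 220.4, 222, 189 and 239 CPM in the ICM libraries and 25.4, 13.6, 37.3, 13.1 and 0 CPM in the TE libraries. Both were far lower in the TE, as given above. Klf6 was at 183, 142, 133, 73.7 and 201 CPM in the ICM libraries and 585, 359, 535, 398 and 402 CPM in the TE libraries, the reverse pattern, with -1.70 ± 0.21 and an adjusted p of 5.57e-06. Klf5, which acts in both lineages, was at 536, 539, 508, 666 and 524 CPM in the ICM libraries and 681, 932, 946, 923 and 1038 CPM in the TE libraries. Its groups lay close but did not overlap, and the difference of -0.70 ± 0.15 was called in all but 1 of 16 alternatives. Of 10 tested GATA, AP-2, T-box and grainyhead factors, Gata4, Gata6 and Tbx3 were higher in the ICM and Gata2, Gata3, Eomes, Tfap2a, Tfap2c and Grhl1 lower. Within the E2F family, E2f4 was higher in the ICM (1.47 ± 0.21), and the atypical repressor E2f8 was lower. E2f8 was at 14.1, 23.2, 25.5, 64.5 and 51.5 CPM in the ICM libraries and 159, 241, 264, 236 and 298 CPM in the TE libraries, a difference of -2.73 ± 0.27 with an adjusted p of 4.58e-07. Rbpj, the DNA-binding protein of Notch signalling, was higher in the ICM (2.42 ± 0.26), as was the architectural protein Hmga2 (1.96 ± 0.44), at 684, 992, 633, 709.5 and 941 CPM in the ICM libraries and 363, 286, 29.3, 217 and 289.7 CPM in the TE libraries. TE replicate 3 was the lowest for Hmga2 by a wide margin.

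The genes that copy and mend DNA were mostly higher in the ICM, and 0 of the replication and repair genes tested were lower. Of 51 replication genes listed, 34 were tested, and 26 were higher and 0 lower, with a median of 1.00. Uhrf1, which couples DNA methylation to replication, was at 254, 159.5, 186, 203 and 169 CPM in the ICM libraries and 12.7, 27.3, 18.6, 17.5 and 32.2 CPM in the TE libraries. The difference was 3.19 ± 0.29 with an adjusted p of 2.08e-07, and no library overlapped. Mcm5, a subunit of the replicative helicase, was at 282, 235, 358, 304 and 173 CPM in the ICM libraries and 89, 150.01, 119.9, 103 and 88.5 CPM in the TE libraries, a difference of 1.30 ± 0.21. Mcm6, of the same complex, was at 444, 284, 396, 288 and 258 CPM in the ICM libraries and 89, 191, 115, 153 and 129 CPM in the TE libraries, a difference of 1.27 ± 0.23. Mcm3 differed by 1.94 ± 0.30, and Mcm7 by 2.40 ± 0.27, with Cops6 annotated antisense to the latter. Dtl, a substrate receptor of the ubiquitin ligase that clears licensing factors in S phase, was at 113, 133, 161, 166 and 117 CPM in the ICM libraries and 25.4, 31.8, 13.3, 45.9 and 40.2 CPM in the TE libraries, a difference of 2.22 ± 0.30. Of 42 repair genes, 14 were tested, and 12 were higher and 0 lower, with a median of 1.64. The other listed repair genes failed the filter on low counts. A gene could pass it through the ICM libraries alone, so this share and median may lean toward the ICM. Parp1, which binds DNA breaks, was at 226, 171, 176, 198 and 164 CPM in the ICM libraries and 50.9, 50.004, 37.3, 43.7 and 16.1 CPM in the TE libraries, a difference of 2.19 ± 0.24. The uracil glycosylase Ung differed by 2.27 ± 0.32. Trp53, which encodes p53, was at 169, 122, 156, 189 and 145 CPM in the ICM libraries and 0, 4.55, 7.99, 15.3 and 40.2 CPM in the TE libraries, a difference of 3.69 ± 0.39, and Bcl2l1, an inhibitor of apoptosis, was lower in the ICM (-1.55 ± 0.33).

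The stretches before the start of 3 of these genes are printed because they hold the letters of the E2F site, the site of the factors that time S phase transcription. Of 19 higher replication genes with 1 promoter entry in RefSeq, 3 held the letters TTTGGCGC on either strand in the 250 bases upstream, and capitals mark them, or their complement. The stretches are in GRCm38.p6, at chr1:191575545-191575794 on the minus strand for Dtl, chr8:75109259-75109508 on the plus strand for Mcm5 and chr1:128359706-128359955 on the minus strand for Mcm6. The matches end 0 bases before the start in Dtl, 141 in Mcm5, and 102 and 39 in Mcm6.
Dtl: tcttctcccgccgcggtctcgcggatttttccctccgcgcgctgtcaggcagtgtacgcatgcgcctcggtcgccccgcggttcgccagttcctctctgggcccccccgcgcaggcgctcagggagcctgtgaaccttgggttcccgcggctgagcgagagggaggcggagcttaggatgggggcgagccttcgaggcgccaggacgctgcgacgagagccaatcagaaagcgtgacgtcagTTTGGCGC
Mcm5: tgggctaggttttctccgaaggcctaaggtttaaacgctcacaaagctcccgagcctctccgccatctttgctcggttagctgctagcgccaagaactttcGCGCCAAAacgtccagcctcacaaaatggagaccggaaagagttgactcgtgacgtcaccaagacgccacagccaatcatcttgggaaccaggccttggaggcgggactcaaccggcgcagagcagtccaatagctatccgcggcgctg
Mcm6: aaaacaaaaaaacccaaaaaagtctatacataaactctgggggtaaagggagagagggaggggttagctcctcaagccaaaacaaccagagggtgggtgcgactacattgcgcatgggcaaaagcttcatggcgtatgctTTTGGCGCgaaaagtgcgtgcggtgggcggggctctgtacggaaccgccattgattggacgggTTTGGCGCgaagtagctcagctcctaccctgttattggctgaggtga
Over promoters of 250 bases before to 50 after the start, these letters were in 15.2% of 33 promoters of the tested replication genes and in 4.44% of those of mitosis genes. They were in 0.514% of all 32851 promoters, 1.93% of those of protein-coding genes higher in the ICM, 0.746% of those lower and 0.934% of those not called. The CCAAT box (CCAAT) was in 63.6% of promoters of replication genes and 73.3% of those of mitosis genes, against 37.4% of all promoters. A match of letters is a description and shows no binding.

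Mitosis genes were higher in the ICM in 22 of 48 tested and lower in 0, with a median of 0.82. The count depended on the litters, at 20, 28, 14, 13 and 17 higher when replicates 1 to 5 were left out in turn. Espl1, the protease separase, differed by 3.14 ± 0.39, and the checkpoint kinase Bub1b by 2.01 ± 0.35. Cdk4, a kinase of the start of the cycle, was at 698, 505, 738, 624 and 515 CPM in the ICM libraries and 242, 245, 261, 260.3 and 258 CPM in the TE libraries, a difference of 1.27 ± 0.16. Its groups stood apart, although Tspan31 is annotated antisense to it. Of 11 tested genes of DNA methylation and demethylation, 7 were higher and 0 lower. Tet1, which oxidises methylcytosine, was at 338, 325, 266, 320.2 and 562 CPM in the ICM libraries and 31.8, 27.3, 10.7, 19.7 and 32.2 CPM in the TE libraries, a difference of 3.93 ± 0.25. Hells, a helicase that maintains methylation, differed by 2.74 ± 0.32, the maintenance enzyme Dnmt1 by 1.39 ± 0.33 and the de novo enzyme Dnmt3a by 1.18 ± 0.24. Dnmt3l was not called. Among Polycomb genes, 3 of 14 tested were higher (21.4%), near the 19.4% of all genes tested. They were Epop (2.76 ± 0.26), Eed (1.31 ± 0.21) and Ezh2 (1.23 ± 0.27). Atrx, a chromatin remodeller, differed by 2.25 ± 0.26.

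Genes that build ribosomes were higher in the ICM, while the ribosomal proteins were not as a group. Of 62 genes of ribosome biogenesis and RNA polymerase I, 55 were tested, and 38 were higher and 0 lower, with a median of 0.80. Npm1, a nucleolar chaperone, was at 4961, 4411, 5837, 4529 and 4711 CPM in the ICM libraries and 2646, 2173, 3132, 2095 and 2052 CPM in the TE libraries. The lowest ICM library exceeded the highest TE library, with a difference of 1.03 ± 0.12 and an adjusted p of 2.51e-06. Nolc1, a nucleolar scaffold, was at 423, 238, 552, 346 and 417 CPM in the ICM libraries and 114, 100.01, 147, 127 and 177 CPM in the TE libraries, a difference of 1.55 ± 0.19. Rrp9, which processes precursor ribosomal RNA, differed by 2.07 ± 0.28. Cytosolic ribosomal proteins gave 20 higher and 13 lower of 76 tested, with a median of 0.06. The higher count was 14, 13, 23, 11 and 13 when replicates 1 to 5 were left out in turn. Nucleotide synthesis gave 14 higher and 1 lower of 28, among them Umps of pyrimidine synthesis (2.03 ± 0.33), Paics of purine synthesis (1.30 ± 0.17) and Dut (1.57 ± 0.18), which clears dUTP. Of 10 polyamine genes tested, 5 were higher, or 3 without replicate 5, and 0 lower. Srm, the spermidine synthase, was at 437, 261, 559, 447 and 384 CPM in the ICM libraries and 82.7, 159, 93.2, 80.9 and 113 CPM in the TE libraries, a difference of 1.997 ± 0.26. Of 16 tested genes of threonine, serine and one-carbon metabolism, 8 were higher, among them the glycine decarboxylase Gldc (1.84 ± 0.33), and 2 were lower, the folate receptor Folr1 (-1.61 ± 0.19) and Cbs (-1.84 ± 0.27), which makes cystathionine.

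RNA processing and protein folding leaned the same way with smaller differences. Splicing genes were higher in 24 and lower in 4 of 62 tested, with a median of 0.40, and the higher count was 15 without replicate 1. Snrpa (1.29 ± 0.20) and Prpf4 (1.45 ± 0.28) are general spliceosome proteins. Mbnl3, a muscleblind regulator of alternative splicing, was the reverse, at 14.1, 34.8, 12.8, 36.9 and 28.1 CPM in the ICM libraries and 216, 214, 213, 276 and 161 CPM in the TE libraries, a difference of -3.07 ± 0.27 with an adjusted p of 1.66e-07. Nuclear pore and transport genes were higher in 16 and lower in 0 of 40. Chaperones were higher in 16 and lower in 1 of 32, with Hsph1, a partner of HSP70, at 965, 783, 971, 829 and 829 CPM in the ICM libraries and 204, 223, 213, 400.2 and 233 CPM in the TE libraries and a difference of 1.796 ± 0.18. Proteasome genes were higher in 13 and lower in 2 of 39, but the higher count was 3 without replicate 2, 4 without replicate 1 or 4 and 5 without replicate 5. Translation factors were higher in 12 of 46 (26.1%, against 19.4% of all genes tested) and lower in 0. Tested genes of the cell cycle lists together gave 67 higher and 2 lower of 117, and those of the gene expression lists 161 higher and 23 lower of 458.

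Genes of the cell cortex were mostly lower in the ICM. Of 46 tested genes of actin and its regulators, 30 were lower in the ICM and 3 higher, or 1 without replicate 4, with a median of -0.97. Actb, cytoplasmic actin, was at 12790, 7581, 11145, 9963 and 9257 CPM in the ICM libraries and 18897, 22525, 41763, 30948 and 27033 CPM in the TE libraries. The groups did not overlap, with a difference of -1.45 ± 0.16 and an adjusted p of 1e-05. Tmsb4x, which binds actin monomers, was at 204, 383, 286, 389 and 140.5 CPM in the ICM libraries and 553, 1450, 1750, 1275 and 555 CPM in the TE libraries, a difference of -1.96 ± 0.18. Lcp1, a bundling protein, differed by -1.76 ± 0.14. Of 13 tested myosin genes, 9 were lower and 1 higher. Myh9, the heavy chain of nonmuscle myosin, was at 303, 374, 337, 359 and 412 CPM in the ICM libraries and 935, 868, 951, 833 and 1642 CPM in the TE libraries, a difference of -1.50 ± 0.16, and TE replicate 5 was far above the other TE libraries. Myo1c differed by -1.94 ± 0.25. Rhoc, a GTPase that drives contraction, differed by -2.53 ± 0.29.

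Junction genes were mostly lower in the ICM, with Jam2 among the exceptions. Of 13 tight junction genes tested, 7 were lower and 2 higher, and of 13 of adherens junctions and desmosomes, 8 were lower and 0 higher, or 5 without replicate 4. Cldn4, a claudin of the trophectoderm (chr5:134945119-134946934, minus strand), was at 536, 328, 414, 495 and 375 CPM in the ICM libraries and 2175, 1891, 2096, 1868 and 1441 CPM in the TE libraries. Its groups stood apart, with a difference of -2.15 ± 0.15 and an adjusted p of 1.11e-08. Cldn7 differed by -1.82 ± 0.19 and the junction scaffold Cgn by -1.83 ± 0.30. Cdh1, which encodes E-cadherin and is used by both tissues, differed by less (-0.70 ± 0.20), and its call was lost in the litters without a zona alone. Krt18 was at 1346, 815, 679, 1329 and 936 CPM in the ICM libraries and 2315, 1959, 1867, 2738 and 3340 CPM in the TE libraries, a difference of -1.28 ± 0.15. Krt8, its partner, differed by -0.82 ± 0.21, with overlap through TE replicate 3, and the call was lost when all 20 libraries were fitted together. Water channels divided, with Aqp3 (-1.66 ± 0.19) and Aqp9 (-2.49 ± 0.32) lower in the ICM and Aqp8 higher. Of 14 tested integrin and adhesion genes, 7 were lower, or 4 without replicate 1 or 4, and Itga3 was higher (3.53 ± 0.58).

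Genes of vesicle traffic differed by list. Of 21 tested Rab GTPases, 13 were lower and 0 higher, with a median of -0.69. Rab20 (-1.83 ± 0.22), Rab17 (-1.57 ± 0.27) and Rab11a (-1.06 ± 0.16) were among them, and the last is the marker of recycling endosomes. Of 22 tested genes of endocytosis and clathrin, 12 were lower and 1 higher. Snx1, of the retromer, was at 423, 278, 163, 380.1 and 361 CPM in the ICM libraries and 1298, 1377, 1894, 1802 and 1457 CPM in the TE libraries, a difference of -2.34 ± 0.23 with an adjusted p of 3.18e-06. Of 24 tested genes of the COPI and COPII coats, 5 were higher (20.8%, against 19.4% of all genes tested) and 1 was lower. Without replicate 3, 4 or 5, 3 were higher. Of 12 SNARE and exocytosis genes, 4 were lower and 0 higher. Stx3, the apical syntaxin of epithelia, was at 70.5, 157, 209, 134 and 206 CPM in the ICM libraries and 388, 341, 1252, 674 and 829 CPM in the TE libraries. Its difference was -2.09 ± 0.21, and Vamp8, an exocytic partner, differed by -2.04 ± 0.22. Those of ER translocation, folding and glycosylation gave 3 lower and 2 higher of 36, or 0 and 3 without replicate 5.

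Lysosomal and sphingolipid genes were mostly lower in the ICM among those called. Of 26 tested lysosomal membrane and proton pump genes, 13 were lower and 0 higher, and of 22 hydrolases 7 were lower and 2 higher. Of 19 tested genes of sphingolipids and phospholipids, 11 were lower and 1 higher, with a median of -1.03. Psap, the precursor of the saposins that present sphingolipids to hydrolases, was at 289, 464, 406, 415 and 464 CPM in the ICM libraries and 1546, 1427, 2544, 1737 and 1577 CPM in the TE libraries. The groups did not overlap, with a difference of -2.10 ± 0.17 and an adjusted p of 5.59e-08. Gm2a, the activator that lifts gangliosides, was at 888, 766, 335, 758 and 936 CPM in the ICM libraries and 3797, 3987, 4486, 4101 and 5714 CPM in the TE libraries, a difference of -2.64 ± 0.21. Smpd1, acid sphingomyelinase, differed by -2.34 ± 0.29, the sialidase Neu1 by -2.31 ± 0.21, and the pump subunit Atp6v0a4 by -2.23 ± 0.24. The 2 hydrolases that were higher in the ICM were proteases, Ctsb and Ctsl. Ctsb, cathepsin B, was at 197, 136, 176, 141 and 206 CPM in the ICM libraries and 82.7, 50.004, 109, 65.6 and 48.3 CPM in the TE libraries, a difference of 1.20 ± 0.23, with Fdft1 annotated antisense to it. Ctsl, cathepsin L, differed by 0.80 ± 0.19, with overlap and 1 litter in the other direction. The letters CACGTG, an E-box read by MiT factors among others, were in 36.8% of the 19 promoters of the tested hydrolases and 28.6% of the 21 of the membrane genes, against 7.15% of all promoters. They were also in 14.3% of promoters of the protein-coding genes higher in the ICM, 8.74% of those lower and 11.3% of those not called.

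Metabolic genes divided by pathway. Of 20 tested genes of fatty acid oxidation and lipid droplets, 11 were lower in the ICM and 0 higher, with a median of -0.78. Fabp3, a fatty acid binding protein, was at 190.3, 107, 278, 164 and 108 CPM in the ICM libraries and 598, 486, 1750, 763 and 644 CPM in the TE libraries, a difference of -2.28 ± 0.18. Zcchc17 is annotated antisense to it. The dehydrogenases Acadl (-1.33 ± 0.17) and Hadh (-1.02 ± 0.16) were lower too, and carnitine, which Slc22a5 imports, carries long-chain fatty acids into mitochondria for this pathway. Complexes III and IV gave 10 lower of 20 and ATP synthase 7 lower of 17, with 0 higher in each, by small amounts, with medians of -0.44 and -0.31. The mitochondrially encoded genes gave 0 lower and 1 higher of 10. Of 14 tested glycolysis genes, 5 were higher and 4 lower. Slc2a3, a high affinity glucose transporter, was at 226, 496, 569.6, 714 and 585 CPM in the ICM libraries and 1946, 1682, 1734, 2148 and 2253 CPM in the TE libraries, a difference of -1.95 ± 0.19, and Hk2, the first enzyme, differed by -1.15 ± 0.20. Pkm, the last enzyme, was at 1106, 728, 848, 1299 and 1124 CPM in the ICM libraries and 146, 286, 87.9, 223 and 225 CPM in the TE libraries, a difference of 2.45 ± 0.23 with an adjusted p of 1.78e-06. Ldha, which makes lactate, differed by 2.84 ± 0.39, with ICM replicate 4 far above the rest. Insig1, a brake on sterol synthesis (-2.48 ± 0.31), and Soat1, which esterifies cholesterol (-2.07 ± 0.20), were lower in the ICM, and 0 of 17 tested sterol genes were higher. Elovl5, which lengthens polyunsaturated fatty acids, was higher (2.87 ± 0.31).

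**Figure D4:**
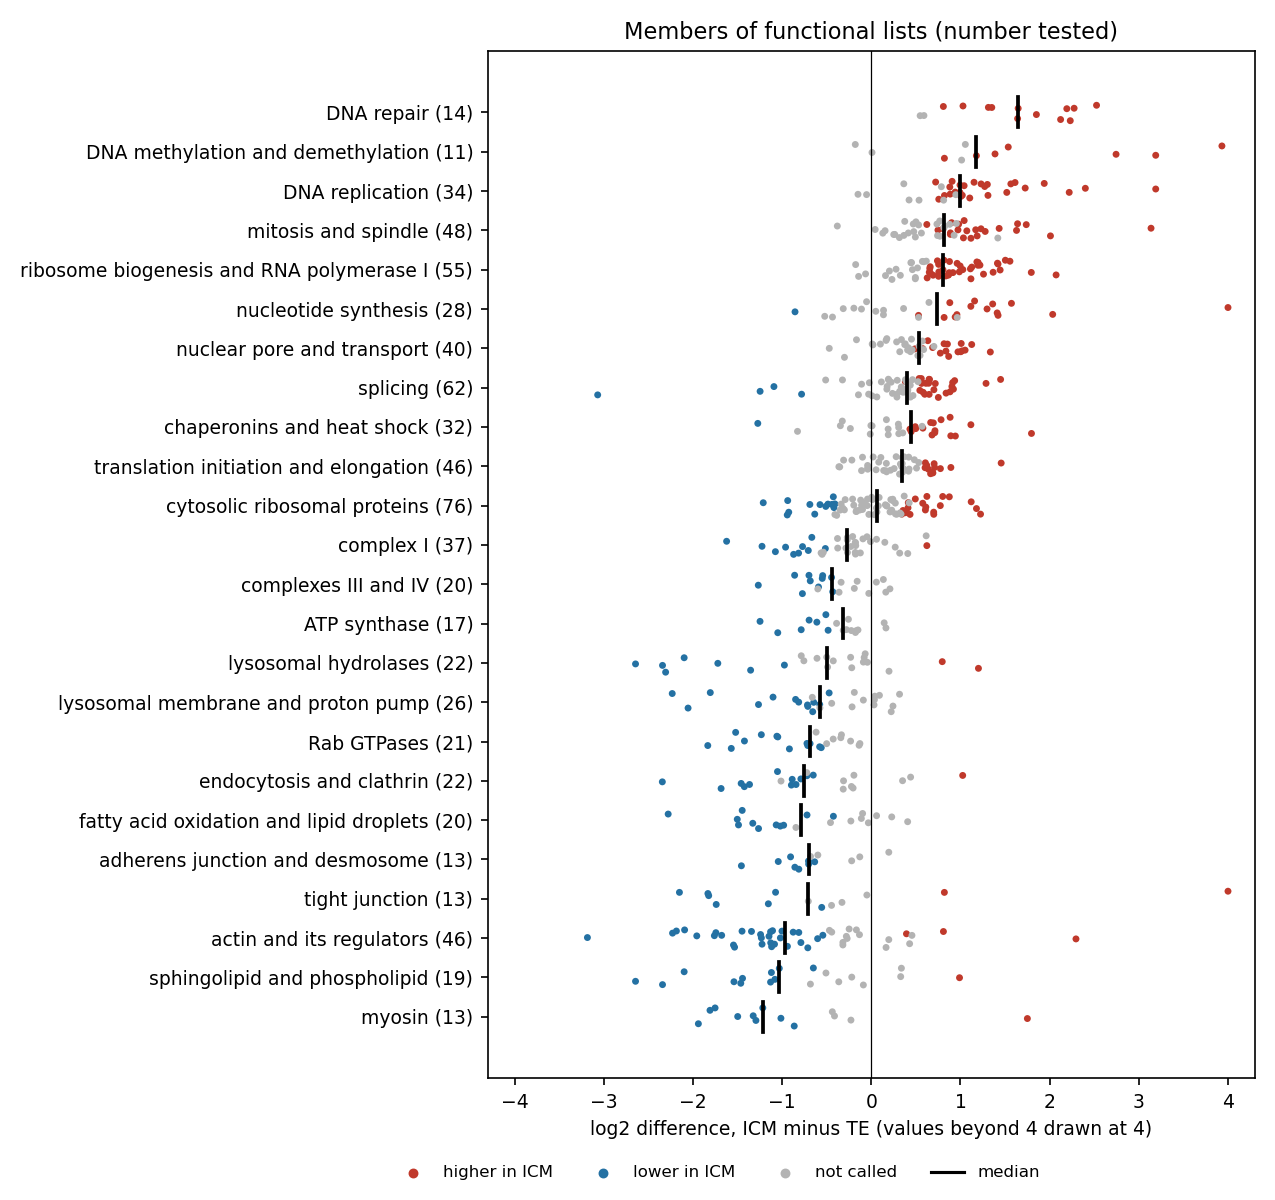
Log2 difference ICM minus TE of every tested member of a chosen part of the 90 gene lists, 1 row per list. The black bar is at the median, and points beyond 4 are drawn at 4. Replication, repair and ribosome assembly genes lie mostly above 0, and actin, myosin, Rab and lysosomal genes mostly below.

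Several close relatives took opposite sides, and these pairs were chosen after their values were seen. Ezr and Msn encode ezrin and moesin, which link membranes to actin. Ezr was at 303, 95.7, 360.2, 260.3 and 304 CPM in the ICM libraries and 82.7, 22.7, 32, 70.0 and 72.4 CPM in the TE libraries, a difference of 2.30 ± 0.26, with Sytl3 annotated antisense to it. Msn was at 49.3, 98.6, 48.5, 138 and 103 CPM in the ICM libraries and 719, 445, 1015, 1091 and 773 CPM in the TE libraries, a difference of -3.18 ± 0.27. Ezr and Msn thus differed in opposite directions without overlap, and both were counted in both tissues. The kinases Prkci (1.34 ± 0.25) and Prkcz (-1.72 ± 0.41), both atypical protein kinases C of polarity, divided too. Transporters of amino acids gave 5 higher and 5 lower of 13 tested. Slc1a5, the neutral amino acid exchanger, was at 70.5, 46.4, 186, 117 and 93.6 CPM in the ICM libraries and 6.36, 9.09, 7.99, 10.9 and 0 CPM in the TE libraries, a difference of 3.73 ± 0.40. Slc7a1, a carrier of cationic amino acids, was at 56.4, 72.5, 253, 194 and 149.8 CPM in the ICM libraries and 0, 9.09, 61.3, 13.1 and 8.05 CPM in the TE libraries, with 1 overlapping library, TE replicate 3, and a difference of 2.96 ± 0.35. Slc1a1, a glutamate and aspartate carrier of the Slc1a5 family, was at 155, 98.6, 140.5, 64.5 and 126 CPM in the ICM libraries and 337, 159, 1100, 610.2 and 386 CPM in the TE libraries. It was lower in the ICM in 5 of 5 litters, with -2.05 ± 0.38 and an adjusted p of 0.0021, and was not called in 1 of 16 alternatives. Slc43a2 (-2.92 ± 0.43) and the peptide carrier Slc15a2 (-2.39 ± 0.17) were lower in the ICM as well.

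Some genes differed in level between litters while the tissue difference kept its direction, and in others, such as Lrp2, the direction turned. Over the 1782 protein-coding calls, the share in which a single litter had the direction of the call ran from 95.85% in replicate 1 to 99.27% in replicate 4. The calls were made on these same litters, so such agreement was in part built in and is no separate support. Dppa2, a chromatin protein of the early embryo, was at 796, 957, 314, 382 and 1545 CPM in the ICM libraries and 153, 182, 24, 59.1 and 121 CPM in the TE libraries. Replicate 3 was lowest in both tissues, and the difference was 2.89 ± 0.22 with an adjusted p of 5.07e-08. Gja1, the gap junction protein connexin 43, was at 296, 444, 46, 94.4 and 290.3 CPM in the ICM libraries and 12.7, 40.9, 2.66, 4.37 and 16.1 CPM in the TE libraries, again lowest in replicate 3 of both tissues, with 3.91 ± 0.29. Isyna1, which makes inositol, was at 789, 458, 263, 369 and 848 CPM in the ICM libraries and 102, 114, 21.3, 52.5 and 72.4 CPM in the TE libraries, a difference of 2.89 ± 0.23. Dppa3, a maternal chromatin protein, was at 1508, 1050, 284, 371 and 965 CPM in the ICM libraries and 820.5, 659, 21.3, 335 and 523 CPM in the TE libraries, higher in the ICM in 5 of 5 litters but not called (1.01 ± 0.42, adjusted p 0.108). In the TE, replicate 3 was the highest for Basp1, at 693, 514, 3332, 1279 and 1095 CPM, and for Tinagl1, a matrix protein, at 1037, 618, 4539, 1964 and 1449 CPM. Laminins varied in the ICM. Lama1 was at 162, 322, 1091, 684 and 417 CPM in the ICM libraries and 159, 72.7, 71.9, 225 and 177 CPM in the TE libraries, with overlap and a difference of 1.88 ± 0.53, and the call was lost without replicate 2, without replicate 4 and with the zona litters alone. Lamc1 differed by 2.22 ± 0.62 and lost its call without replicate 2, without replicate 4 and with no filter on low counts.

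Replicates 1 and 2 came from litters with a zona pellucida, the coat of the embryo, and replicates 3 to 5 from litters without one. Whether the tissue difference depended on the zona was tested as an interaction in edgeR. In this test 0 of 4780 genes passed, with 244 at an unadjusted p under 0.05 and a smallest adjusted p of 0.588. With 2 litters against 3, the test could miss such a dependence, so this result does not show that there was none. Among genes that lost their calls when fitted on the 2 zona litters alone were Amot, Bub1b, Ctsl, Dnmt3a, Ezh2, Fgfr1, Gldc, Klf5, Prpf4, Slc1a1, Tead2 and Umps, and on the other 3 alone Dnmt1 lost its call. The effect of the zona on levels within a tissue is carried by the litter term of this fit and was not tested.

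**Figure D5:**
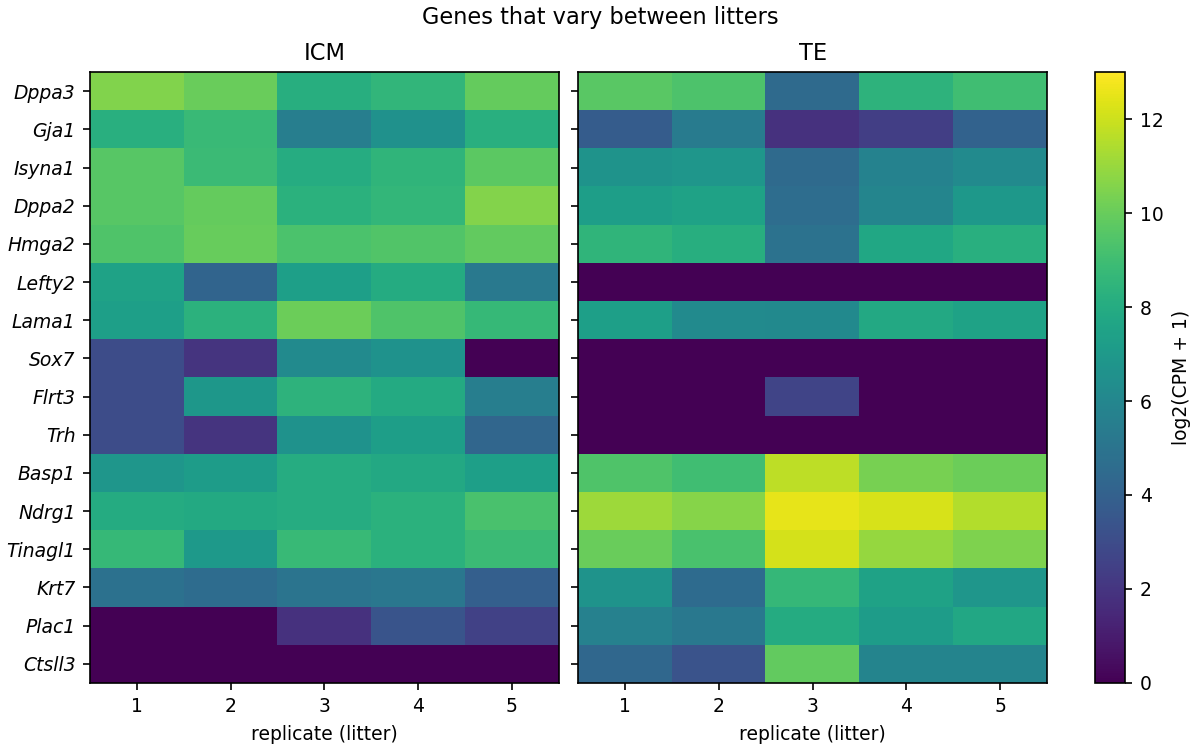
Level of genes that varied between litters, as log2(CPM + 1), with 1 column per library in the order ICM replicates 1 to 5 and TE replicates 1 to 5 and lighter shades for higher levels. Dppa2, Gja1 and Isyna1 are lowest in replicate 3 of both tissues, whereas Basp1 and Tinagl1 are highest in TE replicate 3.

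For 204 protein-coding genes the 95% interval of the log2 difference lay within 0.5 of 0, so that any difference was small. Besides Yap1, these included the insulin-like growth factor receptor Igf2r (0.04 ± 0.21) and the kinase Csnk1a1 (-0.02 ± 0.18). The share of protein-coding genes called in either direction rose with the level, from 26.8% among the 1155 genes of lowest mean CPM to 51% among the 1154 of highest, so low genes not called are less informative. By coding length, 17.8% of the 1156 shortest genes were higher and 22.6% lower, and 18.8% of the 1151 longest were higher and 14.6% lower. The same 3′ counting also gave pseudogenes, of which 11 were higher and 57 lower of 124 tested, and long noncoding RNAs, of which 7 were higher and 4 lower of 34. H19, an imprinted noncoding RNA, was higher in the ICM (2.38 ± 0.40).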

How the data were processed

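Counts per gene and barcode were deposited by the authors for 21470 genes, 15379 of them protein-coding, and 20 libraries. The main fit used the 10 E4 libraries. The remaining libraries entered only the alternative fit of all 20 libraries and the comparison with the other groups of the series. Per the submitters' processing notes, the tools were featureCounts 2.0.1, HISAT2 2.2.1, Trim Galore 0.6.7 and UMI-tools, and GRCh38 and GRCm38 are the builds named, without roles. Not given in the sources used here are whether counts were collapsed by molecular identifier and which strand setting and annotation were counted. Because these are 3′ counts, levels are not comparable between genes, and no test compared them.

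Genes passing filterByExpr (minimum count 10) were tested in R 4.3.3 with edgeR 4.0.16 (quasi-likelihood F-test), TMM factors, terms for litter and tissue, and Benjamini-Hochberg adjustment over all 4780 genes at 0.05. The barcode list gives the litters, and libraries of a litter deviated together from their tissue means (mean correlation across genes 0.170, from 0.0807 to 0.259). Deviations from a tissue mean sum to 0, so the mean of -0.0416 for other pairs follows from this and is no separate comparison. For genes with 1 to 3 counts in a tissue, the ratio of pooled counts has an exact 95% interval, which covers counting error only and not the spread between litters, and against a tissue at 0 the bound uses 3 counts over its libraries. The medians of gene lists were the same with such genes set at their bound. The lowest chi-square per degree of freedom between libraries of a tissue was 2.57, so no library was counted as a duplicate.

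The members and the 90 gene lists were chosen with earlier results of these data known. Named genes are the 12 per direction with the smallest p at or above the median level and of 1 direction in 5 of 5 litters, up to 10 per direction with at most 3 counts in 1 tissue and at least 100 in the other, up to 4 per list and direction with the smallest adjusted p, factor and signal genes with an interval within 0.5 of 0, and the lineage lists. The 10 most abundant protein-coding genes of each tissue were also taken by this rule, and only those with a role in a comparison are described. The genes over 16-fold lower, Trh, Fgfr1, Mcm5, Mcm6, Slc1a1, Dnmt1, Dnmt3a, Cdh1, Socs3, Dusp6, Xist and genes of the same lists not called were chosen after their values were seen. Promoters came from RefSeq (GRCm38.p6), with 3746 of 4617 tested protein-coding genes matched (81.1%). Coordinates of genes are those of GENCODE vM21 (GRCm38). Scripts were tested on simulated data. A few genes are not reported here. Alternatives used DESeq2 1.42.0, limma 3.58.1, other scalings and filters, thinning to the smallest total count, no litter term and each litter left out. Counts of list members without each litter were added after seeing the data. Figures used Python 3.11.15, pandas 2.3.3, NumPy 2.4.6 and matplotlib 3.10.9.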

Additional observations from a re-analysis of the deposited data

Results flagged for a closer look

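In 214 groups of 5 libraries of the genes named here, 19 (8.88%) held a library far from the other 4. The cutoff would flag about 1 in 20 (5%) of groups of normally distributed values. CPM need not be normal and the genes share libraries, so the 8.88% cannot be read as an excess. TE replicate 3 held 7 of the 19, and it was the highest TE library for Elf5 at 274 CPM, Basp1 at 3332 CPM, Ctsll3 at 935 CPM, Fabp3 at 1750 CPM, Psap at 2544 CPM, Dusp6 at 242 CPM and Slc7a1 at 61.3 CPM. ICM replicate 5 stood high for Tet1 at 562 CPM, Efnb1 at 74.9 CPM and Ndrg1 at 609 CPM. ICM replicate 4 stood high for Klf5 at 666 CPM and Ldha at 509 CPM, and ICM replicate 2 for Tead4 at 95.7 CPM and Slc15a2 at 284 CPM. ICM replicate 1 was high for Etv5 at 211 CPM and low for Epha4 at 63.4 CPM. Among single TE libraries, Lif stood high in replicate 2 at 164 CPM, Hsph1 in replicate 4 at 400.2 CPM and Myh9 in replicate 5 at 1642 CPM.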

How the results depend on the processing

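The main counts were 926 genes higher and 935 lower in the ICM over all genes, and 908 and 874 over protein-coding genes. They stayed within 1.5 times with other scalings, with voom, with all 20 libraries fitted together and with the 3 litters without a zona. Without the litter pairing (no replicate block), 821 were higher and 846 lower, 806 and 790 of them protein-coding. With no filter on low counts, 1474 genes were higher, 1419 of them protein-coding, with more genes tested. A minimum count of 30 gave 478 higher and 482 lower, 469 and 451 of them protein-coding, over fewer genes. DESeq2 gave 604 higher, 591 of them protein-coding. Thinning to the smallest total count gave 537 higher and 609 lower, 528 and 568 of them protein-coding. The 2 litters with a zona alone gave 372 higher and 446 lower, 359 and 408 of them protein-coding, with fewer libraries. Leaving out 1 replicate gave 641 to 912 higher and 701 to 1008 lower, and 629 to 891 and 654 to 941 for protein-coding genes, each lowest without replicate 4. The count of genes whose difference depended on the zona was 0 under each setting run, with a smallest adjusted p from 0.407 to 0.605. Of 423 named genes called, 269 were called in every alternative, and 88 lost the call in 1 or more other than the zona litters alone. Rragc (-0.84, and 0.17 with only the zona litters, adjusted p 0.862) and Cgnl1 (0.82, and -0.42, adjusted p 0.613) reversed, and the cause was not tested. Depth limits low genes, as a count of 0 allows up to 24.1 CPM in the shallowest library.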

Other observations

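Some genes set a single tissue apart at E4 from the other 3 groups of the series, by at least 8-fold in pooled CPM. In the ICM at E4, 9 protein-coding genes stood above the other groups, among them Bhmt, Mep1b, Dpp10, Mgarp and the crystallins Crygc, Crygd and Cryge, which have near-identical copies. Dpp10 had 139 counts over the ICM, 95 of them in replicate 5, and 0 over the TE libraries, and Crygd had 115 and 0. In the TE at E4, 8 pseudogenes stood above the other groups. Ptma-ps2 had a mean of 53.8 ± 17.4 CPM (SD, n = 5) in the ICM and 1166 ± 203 CPM in the TE, with a log2 difference of -4.41 ± 0.22, while its parent gene Ptma had 1442 ± 197 and 1173 ± 167 CPM and was not called (edgeR adjusted p 0.0724). Gm14336 had 3.52 ± 3.70 CPM in the ICM and 655 ± 114 CPM in the TE. Libraries of a tissue shared 1 amplification pool, and its part in these values was not tested.

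Xist, the RNA that silences an X chromosome, was at 14.1, 31.9, 217, 154 and 337 CPM in the ICM and 356, 13.6, 26.6, 190.3 and 386 CPM in the TE. ICM and TE replicates of the same number differed widely in replicates 1 and 3, in opposite directions. The Y-linked gene Ddx3y had 46 counts in ICM replicate 2 and 22 in TE replicate 2, and at most 1 count in any other library, and Eif2s3y had 25 and 23. Replicate 2 of both tissues thus held Y-linked transcripts together, whereas Xist in replicates 1 and 3 did not match within the pair.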
